A study of Mus musculus with 9 samples.

Results

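The interferon-stimulated genes described here are 46 genes of mouse sorted monocytes, taken by their symbols from the 23238 gene symbols of the count files and grouped by the role of their products. All 46 were found, and 45 of them were among the 10107 genes with enough counts to be tested, the exception being Ifi44. Interferons are cytokines that are released when cells sense viral nucleic acid or tissue damage. Type I interferon binds the Ifnar1 and Ifnar2 receptor chains, the kinases Jak1 and Tyk2 then activate Stat2, and a complex of Stat2 with Irf9 binds the interferon-stimulated response element (ISRE) in the promoters of target genes. Interferon gamma, made mainly by NK and T cells, acts through Ifngr1 and Ifngr2 on genes that carry the gamma-activated site (GAS). Monocytes carry both kinds of receptor, and many target genes block a step of viral replication.

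The libraries came from an NMO-like model, in which neuromyelitis optica (NMO), an autoimmune disease with antibodies against the astrocyte water channel aquaporin-4, was imitated by injection of patient NMO-IgG and human complement into the striatum on one side. The animals were female wild-type C57BL/6N mice of 12 weeks, and cells were taken on day 1. Monocytes sorted as CD45+CD11b+P2ry12- cells with Ly6C and without Ly6G formed 3 groups, blood of untreated mice (Nor_Bl_mono), blood of injected mice (NMO_Bl_mono) and brain of injected mice (NMO_Br_mono), each of 3 libraries from pools of 5 mice. No group that received control IgG and no brain monocytes of normal mice were among these libraries, and brain cells were released by enzymes while blood cells were taken by density gradient, so tissue, injury and cell preparation cannot be told apart in a comparison of brain with blood. Values are TMM-normalised CPM, read counts scaled to a common library size. QuantSeq libraries read the 3ʹ end of a transcript, so CPM needs no scaling by length.

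Libraries held 7584649 to 10419647 counts, of which the ribosomal entry Rn45s took 28.4% to 43.6%. The share of tested genes with 3 counts or fewer, taken here as not detected, ran from 4.24% to 60.2%, and NMO_Bl_mono replicate 3 (4567 genes with a count) and NMO_Br_mono replicate 2 (6473 genes) stood apart as sparse, so that results were also computed without both. The 11 monocyte markers summed to 4872 to 8715 CPM over the 9 libraries, and brain and blood overlapped. Single markers moved in opposite directions. Ly6c2 (59.4 to 437 CPM in brain, 462 to 933 CPM in blood) and Ptprc (466 to 1009 against 1149 to 1893 CPM) were lower in the brain. Ccr2 (786 to 1297 against 89.8 to 691 CPM) and Itgam (415 to 652 against 299 to 392 CPM) were higher, and the other markers overlapped. Markers of 8 NK cell genes summed to 2135 to 2852 CPM in the 6 blood libraries and to 39.9 to 337 CPM in the brain libraries, while 9 microglia markers summed to 0 to 74.1 CPM in blood and 432 to 648 CPM in brain, and 9 neutrophil markers to 85.0 to 309 CPM in blood and 444 to 1790 CPM in brain. In the brain all 9 microglia markers and 8 of the 9 neutrophil markers were above 3 counts in some library, with Retnlg at 0, and in blood 4 microglia markers were, with Tmem119 at 0. Brain and blood also stood apart in the sums of 6 markers of border-associated macrophages (235 to 380 CPM in brain, 2.25 to 126 CPM in blood), 8 of plasmacytoid dendritic cells, a list that holds Bst2 (356 to 556 against 1492 to 1965 CPM), 5 of platelets (0 to 39.3 against 161 to 1454 CPM) and 6 of T cells (0 to 23.0 against 31.9 to 148 CPM). Most of the plasmacytoid sum in blood was Irf8, with 1279 to 1877 CPM in blood and 137 to 265 CPM in brain. Each other marker of that list overlapped between brain and blood, and Siglech reached 83.1 CPM in brain against 8.03 CPM in blood. The 6 endothelial markers reached 862 CPM in NMO_Br_mono replicate 3. The part of these cells in the results below was not tested, and in such bulk samples fewer cells of a type and less RNA per cell cannot be told apart.

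To show what links the genes, the promoters were read first. RefSeq (GRCm38.p6, the assembly also called mm10) gave a window of 250 bases before to 50 bases after the start for 37 of the 46 genes; Usp18, Oas2, Mx1, Mx2, Dhx58, Zbp1, Parp9, Parp14 and Rtp4 were not matched. The ISRE core was searched as GAAANNGAAA or, on the other strand, TTTCNNTTTC. It was in the windows of 20 of the 37 genes (54.05%), against 3.993% of the 27025 genes of the table. The GAS core, TTCNNNGAA, reads the same on both strands and was in 10 of the 37 genes (27.03%), against 9.554% of all. The following stretches show how the ISRE core sits in genes of some of the roles, with every match in capitals and overlapping matches run together. They are the Isg15 promoter with 3 overlapping matches (chr4:156200859-156200908, minus strand), Ifit1 with 2 separate matches on the opposite strand (chr19:34640769-34640828, plus strand), Oas1a with 2 overlapping matches just before the start (chr5:120907526-120907570, minus strand), Bst2 (chr8:71537573-71537617, minus strand), Igtp (chr11:58199506-58199545, plus strand) and Gbp2 (chr3:142620595-142620624, plus strand).
Isg15: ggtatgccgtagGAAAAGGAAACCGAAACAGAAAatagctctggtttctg
Ifit1: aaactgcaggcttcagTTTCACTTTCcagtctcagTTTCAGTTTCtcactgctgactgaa
Oas1a: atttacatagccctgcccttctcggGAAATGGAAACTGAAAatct
Bst2: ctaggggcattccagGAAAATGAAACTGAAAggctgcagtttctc
Igtp: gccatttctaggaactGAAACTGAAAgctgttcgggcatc
Gbp2: ctcttttagTTTCACTTTCactgtcttaag

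The Ifitm genes are shown because they lie close together on chromosome 7 and Ifitm1 had the largest fitted change of all members. The Ifitm2 window held 1 ISRE core (chr7:140955988-140956027, minus strand) and that of Ifitm3 held 2, both within the first 30 bases from the start (chr7:141010715-141010744, minus strand). The Ifitm1 window held neither core, and its bases from 250 to 51 before the start are printed without capitals (chr7:140967826-140968025, plus strand).
Ifitm2: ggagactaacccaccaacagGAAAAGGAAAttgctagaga
Ifitm3: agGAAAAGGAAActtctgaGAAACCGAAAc
Ifitm1: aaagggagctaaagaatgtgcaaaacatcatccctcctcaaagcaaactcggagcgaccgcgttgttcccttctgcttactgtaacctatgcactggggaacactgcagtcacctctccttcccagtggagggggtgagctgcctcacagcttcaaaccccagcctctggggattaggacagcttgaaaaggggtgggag

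**Figure D1:**
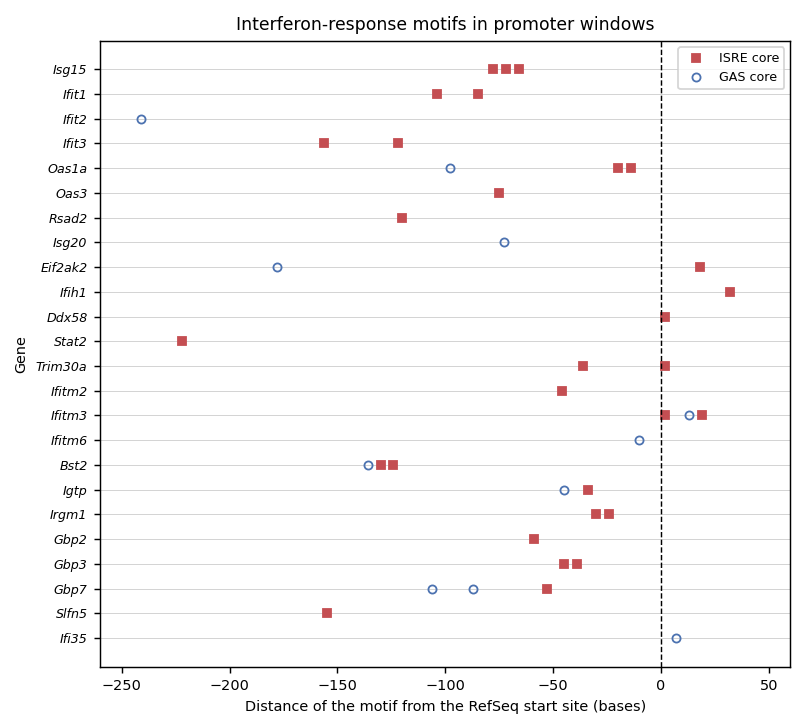
Position of the ISRE core (filled squares) and the GAS core (open circles) in the promoter windows of the genes with a match, as the distance in bases of the first base of a match from the RefSeq start (dashed line). Isg15, with 3 ISRE cores, has the most matches of this motif.

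In the 20 genes with an ISRE core in the window the median log2 fold change of NMO_Br_mono against NMO_Bl_mono was 0.56, and in the 16 tested genes with a window but no core it was 0.46. A motif match describes letters only, and the pair of medians is given without a test.

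The first question was whether these genes were higher in monocytes of the NMO brain than in blood monocytes of the same model. No interferon-stimulated gene passed the test in this comparison. In edgeR's quasi-likelihood test with Benjamini-Hochberg adjustment, 0 of 45 genes had an adjusted p under 0.05, against 0.247% of all genes tested, and the smallest adjusted p was 0.80. At the study's own threshold, an unadjusted p under 0.05 with a fold change of at least 1.2, 0 of 45 were called, against 5.32% of all genes, and DESeq2 called 0 after adjustment (3.40% of all genes) and 1 at the unadjusted threshold (8.97% of all genes). The fitted log2 fold changes leaned to the brain, with a positive value in 29 of 45 genes and a median of 0.57, where 51.4% of all genes were positive and their median was 0.05.

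**Figure D2:**
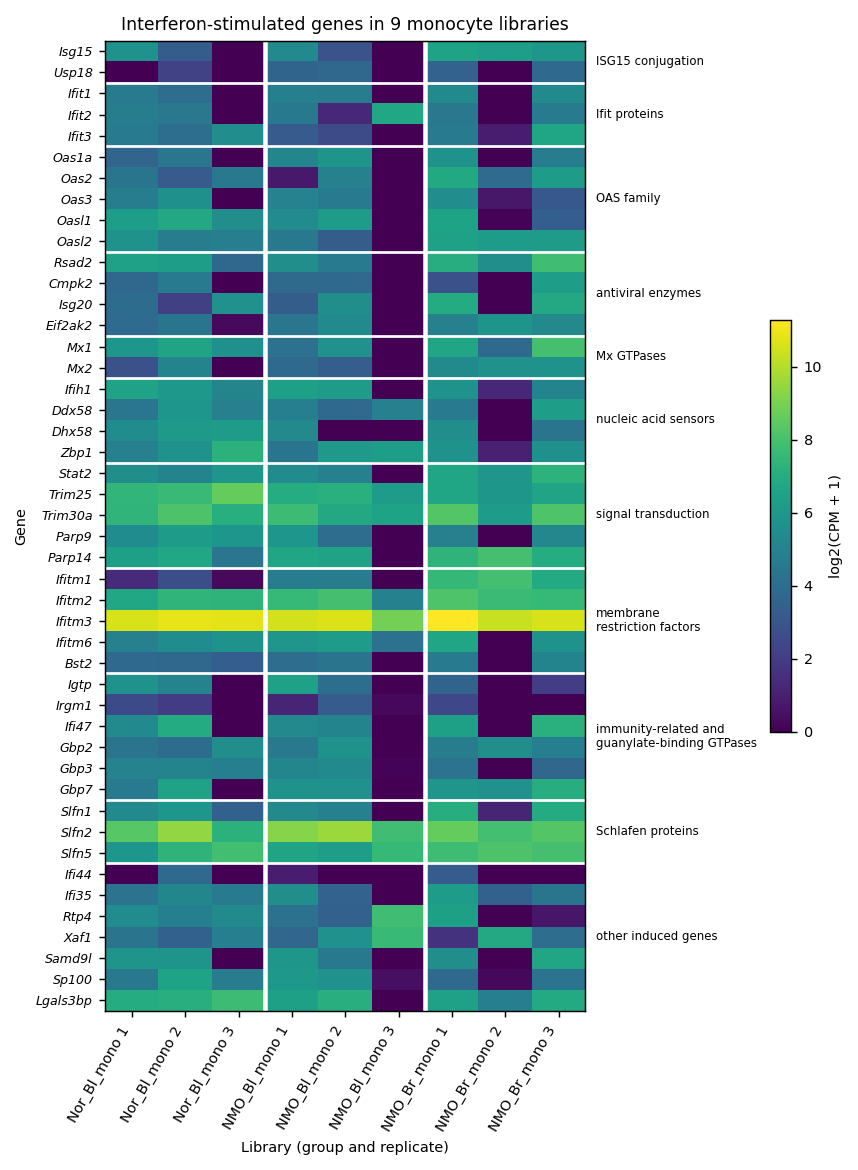
Log2(CPM + 1) of the 46 interferon-stimulated genes (lines, grouped by role) in the 9 libraries (columns, 3 per group). Ifitm3 is the brightest line in every library, Ifitm1 is brighter in the 3 NMO_Br_mono libraries than in any blood library, and the dark columns are the sparse libraries, with 33 genes at 3 counts or fewer in NMO_Bl_mono replicate 3 and 20 in NMO_Br_mono replicate 2.

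Without overlap between the groups, 7 of 45 genes were higher in all 3 NMO_Br_mono libraries than in all 3 NMO_Bl_mono libraries (Isg15, Oasl2, Mx2, Stat2, Parp14, Ifitm1 and Slfn5), against 6.3% of all genes, and 0 were lower, against 6.05%. Of these, 5 (Isg15, Oasl2, Mx2, Parp14 and Ifitm1) were above all 6 blood libraries, where 3.57% of all genes were, and 0 were below all of them, where 3.13% were. The 45 genes thus gave 15.6% and 11.1% in the upward direction. NMO_Bl_mono replicate 3, in which 71.1% of the tested interferon-stimulated genes and 60.2% of all tested genes had 3 counts or fewer, is in both counts.

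Detection decided much of what could be compared. Only 8 of the 46 genes had more than 3 counts in all 9 libraries. The genes at 3 counts or fewer numbered 2, 0 and 16 over replicates 1, 2 and 3 of Nor_Bl_mono, 0, 2 and 33 over those of NMO_Bl_mono, and 0, 20 and 2 over the brain replicates. The losses fell on different libraries within a group. Of the genes lost in the sparse libraries, 15 were lost in both. Each of the 46 genes reached at least 79 counts in some library, so a value of 0 in a sparse library stood beside well-counted values elsewhere. Rtp4, Ifit2 and Xaf1 were highest in NMO_Bl_mono replicate 3, at 229, 107 and 198 CPM, the library in which most other members were not detected.

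**Figure D3:**
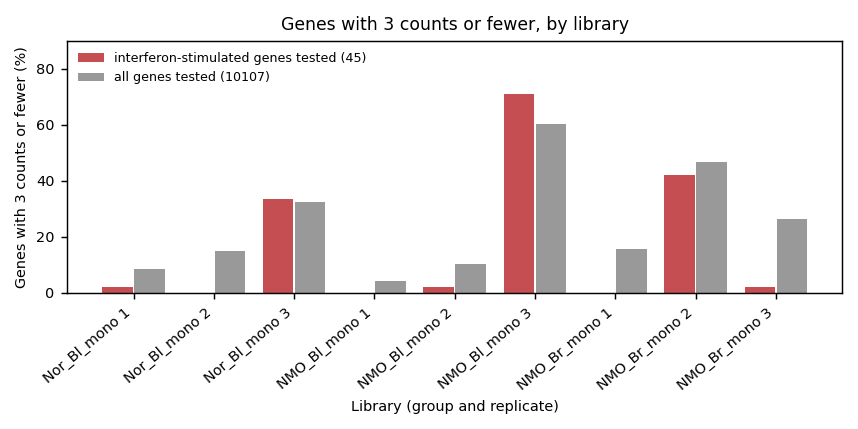
Share of genes with 3 counts or fewer (vertical axis, percent) in each library, for the 45 interferon-stimulated genes tested and for all 10107 genes tested. The bars reach 71.1% and 60.2% in NMO_Bl_mono replicate 3, and 42.2% and 46.8% in NMO_Br_mono replicate 2.

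Ifitm1, a small membrane protein of the family that hinders virus entry, showed the widest range between groups. Nor_Bl_mono replicates 1, 2 and 3 had 1.58, 5.50 and 0.20 CPM (11, 52 and 2 counts), NMO_Bl_mono had 26.2, 26.1 and 0 CPM, and NMO_Br_mono had 181, 239 and 117 CPM. The brain libraries lay above every blood library, and the sparse NMO_Br_mono replicate 2 was the highest. The mean was 179 ± 61.2 CPM (SD, n = 3) in NMO_Br_mono, 17.4 ± 15.1 in NMO_Bl_mono and 2.43 ± 2.75 in Nor_Bl_mono. Against NMO_Bl_mono the fitted log2 fold change was 3.36 ± 1.66 (SE; edgeR adjusted p = 0.80). Against Nor_Bl_mono it was 6.19 ± 1.90, with an unadjusted edgeR p of 0.0057 that met the study's threshold and an adjusted p of 0.49. This adjusted p was 0.0097 with DESeq2, 0.014 without the expression filter, 0.025 without NMO_Bl_mono replicate 3 and 0.0486 without both sparse libraries, and it stayed above 0.05 under the other 13 alternatives, at 0.0715 to 0.87. In the comparisons of NMO_Br_mono both with NMO_Bl_mono and with Nor_Bl_mono the brain libraries are the same, so the differences are not independent of each other. The summed markers of neutrophils, microglia and border-associated macrophages were also higher in all brain libraries, as given above. Of the single markers only S100a8, Ngp, Fcrls, Olfml3, Sparc, Mrc1 and Stab1 were. P2ry12 overlapped (9.95 to 69.7 CPM in brain, 0 to 43.4 CPM in blood), and Retnlg was at 0 in brain and reached 125 CPM in blood. Sparc made up 314 of the 495 CPM of the microglia sum in NMO_Br_mono replicate 3. The part of these cells in the Ifitm1 counts was not tested.

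The other Ifitm genes, and Bst2 of the same role, were less far apart. Ifitm3, which stops viruses in late endosomes, was the most abundant gene of all 46, with 1539, 1842 and 1831 CPM in Nor_Bl_mono, 1442, 1657 and 492 CPM in NMO_Bl_mono and 2489, 1287 and 1567 CPM in NMO_Br_mono. Its 28.0% to 44.9% of the summed CPM of the 46 genes means that any sum over them follows it. Brain and blood overlapped, and the log2 fold change of NMO_Br_mono was 0.57 ± 0.39 against NMO_Bl_mono and 0.04 ± 0.39 against Nor_Bl_mono. Ifitm2, a close relative, had 108, 165 and 161 CPM in Nor_Bl_mono, 185, 248 and 30.3 CPM in NMO_Bl_mono and 285, 203 and 190 CPM in NMO_Br_mono. Every brain library was above every Nor_Bl_mono library for Ifitm2, with a log2 fold change of 0.64 ± 0.68 (edgeR adjusted p = 1), while the blood libraries of NMO mice overlapped with the brain. Ifitm6, a myeloid member, had 29.5, 43.3 and 54.4 CPM in Nor_Bl_mono, 58.8, 71.1 and 17.5 CPM in NMO_Bl_mono and 99.5, 0 and 54.4 CPM in NMO_Br_mono, so the brain libraries held both its highest and its lowest value. Bst2, the tetherin that holds budding virus at the cell surface, stayed between 0 and 33.0 CPM, with 13.5, 12.7 and 9.20 CPM in Nor_Bl_mono, 15.1, 19.2 and 0 CPM in NMO_Bl_mono and 23.8, 0 and 33.0 CPM in NMO_Br_mono. Reads that aligned to several places were counted by the authors, so the division of reads among the similar Ifitm genes is uncertain.

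**Figure D4:**
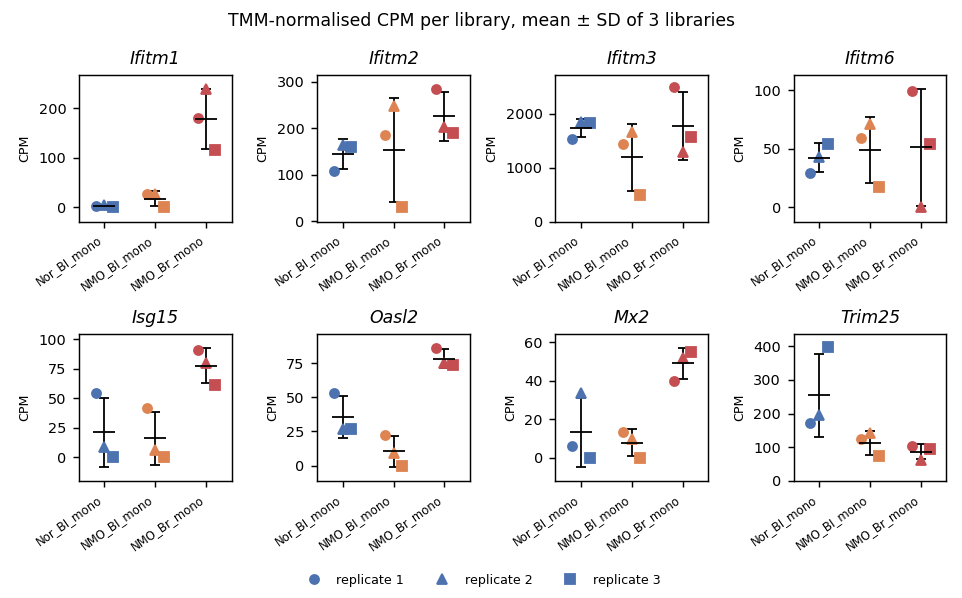
CPM in each library (symbols mark the replicate, colours the group) with the mean and SD of 3 libraries for Ifitm1, Ifitm2, Ifitm3, Ifitm6, Isg15, Oasl2, Mx2 and Trim25. The 3 NMO_Br_mono libraries lie above all 6 blood libraries for Ifitm1, Isg15, Oasl2 and Mx2, and below the Nor_Bl_mono libraries for Trim25. An SD bar that passes below 0 shows spread and not a possible CPM.

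ISG15 is a ubiquitin-like protein that is joined to other proteins after interferon, and Usp18 removes it and dampens the receptor. Isg15 had 54.2, 8.98 and 0 CPM in Nor_Bl_mono, 41.7, 6.31 and 0 CPM in NMO_Bl_mono and 90.9, 79.9 and 61.5 CPM in NMO_Br_mono. The brain libraries lay above all blood libraries, whose values ran from 0 to the level of replicate 1, close under the lowest brain value. The mean of 77.4 ± 14.9 CPM (SD, n = 3) in NMO_Br_mono was 4.83 times that of NMO_Bl_mono, and the log2 fold change of 2.27 ± 2.16 did not pass the test (edgeR adjusted p = 1). Usp18 stayed at or below 13.4 CPM in all libraries and was at 0 in 4 of them.

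Among the OAS family, whose active enzymes make the 2-5A signal for RNA decay, only Oasl2 was without overlap. It had 53.1, 26.5 and 27.2 CPM in Nor_Bl_mono, 22.5, 8.92 and 0 CPM in NMO_Bl_mono and 86.2, 75.3 and 74.0 CPM in NMO_Br_mono. The groups were in full order, with NMO_Bl_mono below Nor_Bl_mono and NMO_Br_mono above both. The log2 fold change was 2.90 ± 1.71 for brain against NMO blood (edgeR adjusted p = 0.89) and -1.76 ± 1.64 for NMO blood against normal blood (adjusted p = 1). Oas2 was highest in NMO_Br_mono replicates 1 and 3, at 114 and 72.7 CPM, but replicate 2 had 14.4 CPM, within the blood range of 0 to 29.5. Oas1a, Oas3 and Oasl1 had log2 fold changes between -0.21 and -0.03 for brain against NMO blood against standard errors of 1.91 to 2.62, and they had 0, 0.67 and 0.10 CPM in NMO_Br_mono replicate 2 and 0 in NMO_Bl_mono replicate 3.

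The Ifit proteins, which bind viral RNA lacking host caps, did not separate the groups in brain against NMO blood. Ifit3 had 24.3, 15.9 and 44.6 CPM in Nor_Bl_mono, 8.40, 4.90 and 0 CPM in NMO_Bl_mono and 24.5, 0.86 and 100 CPM in NMO_Br_mono. All 3 NMO_Bl_mono libraries were below the normal ones, and the brain libraries overlapped with both blood groups. Ifit1 reached 40.1 CPM and was at 0 in 3 libraries, while Ifit2 had its highest value, 107 CPM, in NMO_Bl_mono replicate 3.

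Mx GTPases form rings around viral nucleocapsids. Mx2 had 5.90, 33.4 and 0 CPM in Nor_Bl_mono, 13.4, 9.79 and 0 CPM in NMO_Bl_mono and 39.9, 51.7 and 55.0 CPM in NMO_Br_mono, so that all brain libraries lay above all blood libraries. Its log2 fold change was 2.66 ± 2.43 against NMO_Bl_mono and 1.90 ± 2.36 against Nor_Bl_mono (edgeR adjusted p = 1 in both). Mx1, with 13.7 to 247 CPM in brain and 0 to 96.2 CPM in blood, overlapped.

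Of the antiviral enzymes, Rsad2 (viperin, which makes a chain-ending nucleotide) had a mean of 134 ± 90.6 CPM in NMO_Br_mono, 23.3 ± 23.3 in NMO_Bl_mono and 60.1 ± 41.3 in Nor_Bl_mono (SD, n = 3). Its neighbour Cmpk2, a mitochondrial nucleotide kinase, and the exonuclease Isg20 were each at 0 in NMO_Br_mono replicate 2 but at 75.9 and 112 CPM in replicate 3. Eif2ak2, the kinase PKR that halts translation on double-stranded RNA, was above every Nor_Bl_mono library in the brain, at 29.5, 56.2 and 38.3 CPM against 14.4, 20.0 and 0.20 CPM.

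The 4 cytosolic sensors of viral nucleic acid overlapped between brain and NMO blood. Dhx58 (LGP2) had 44.3, 66.9 and 75.3 CPM in Nor_Bl_mono, 38.1, 0 and 0 CPM in NMO_Bl_mono and 46.1, 0 and 19.0 CPM in NMO_Br_mono. All NMO_Bl_mono libraries were below all normal ones, with a log2 fold change of -2.29 ± 2.48 (edgeR adjusted p = 1). Ifih1 (MDA5), Ddx58 (RIG-I) and Zbp1, a sensor of left-handed nucleic acid, had log2 fold changes of -0.83, 0.55 and -0.69 for brain against NMO blood, each smaller than its standard error. In NMO_Br_mono replicate 2 these 4 sensors together had 2.47 CPM, against 177 and 181 CPM in the other brain libraries.

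Among genes of signal transduction, Trim25, the ubiquitin ligase that acts on RIG-I, was the only member lower in the brain at the study's threshold, and only against normal blood. Its values were 171, 195 and 396 CPM in Nor_Bl_mono, 125, 143 and 73.6 CPM in NMO_Bl_mono and 103, 61.4 and 94.7 CPM in NMO_Br_mono. Both NMO groups lay wholly below normal blood, and they overlapped with each other. For NMO_Br_mono against Nor_Bl_mono the log2 fold change was -1.56 ± 0.62, with an unadjusted edgeR p of 0.0245 that met the study's threshold and an adjusted p of 0.71. For NMO_Bl_mono against Nor_Bl_mono it was -1.16 ± 0.61 (adjusted p = 1).

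Stat2, a part of the ISRE-binding complex, had 47.2, 33.3 and 60.3 CPM in Nor_Bl_mono, 42.2, 29.8 and 0 CPM in NMO_Bl_mono and 101, 58.6 and 156 CPM in NMO_Br_mono. Brain lay above NMO blood in all libraries and overlapped normal blood, with a log2 fold change of 2.13 ± 1.53 against NMO_Bl_mono (edgeR adjusted p = 1). Parp14, a macrodomain ADP-ribosyltransferase, had 80.7, 108 and 20.5 CPM in Nor_Bl_mono, 97.5, 89.9 and 0 CPM in NMO_Bl_mono and 159, 250 and 125 CPM in NMO_Br_mono. Each brain library of Parp14 was above each blood library, and the log2 fold change against NMO_Bl_mono was 1.51 ± 1.41 (adjusted p = 1). Its relative Parp9 was below normal blood in all brain libraries, at 29.1, 0 and 36.1 CPM against 44.2, 71.8 and 59.1 CPM. Trim30a, which restrains Toll-like receptor signalling, had 165, 281 and 135 CPM in Nor_Bl_mono, 213, 110 and 92.9 CPM in NMO_Bl_mono and 308, 71.2 and 284 CPM in NMO_Br_mono, with both the highest and the lowest value in the brain.

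Immunity-related and guanylate-binding GTPases, which are mostly targets of interferon gamma and attack the vacuoles of pathogens, showed no common direction. Of the 6, 3 had a positive and 3 a negative log2 fold change for brain against NMO blood, from -2.86 ± 2.82 (Igtp) to 1.65 ± 2.34 (Ifi47). Igtp had 52.8, 32.2 and 0 CPM in Nor_Bl_mono, 88.1, 15.7 and 0 CPM in NMO_Bl_mono and 11.2, 0 and 3.08 CPM in NMO_Br_mono. Gbp3 was lower in each brain library (18.4, 0 and 12.04 CPM) than in each normal library (31.2, 33.0 and 28.6 CPM). Gbp2 and Gbp7 were detected in all 3 brain libraries, at 26.8 to 46.2 and 50.5 to 131 CPM, and Irgm1 did not exceed 8.60 CPM in any library.

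Schlafen proteins act on tRNA and on the cell cycle of lymphoid and myeloid cells. Slfn2 had 327, 701 and 150 CPM in Nor_Bl_mono, 609, 762 and 223 CPM in NMO_Bl_mono and 397, 241 and 311 CPM in NMO_Br_mono, and its groups overlapped. Slfn5 had 59.0, 159 and 236 CPM in Nor_Bl_mono, 96.2, 79.9 and 185 CPM in NMO_Bl_mono and 216, 282 and 246 CPM in NMO_Br_mono. The brain was above NMO blood for Slfn5 in all libraries, at a log2 fold change of 1.05 ± 0.62 (edgeR adjusted p = 0.91), and overlapped normal blood.

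The remaining genes were mixed. Lgals3bp, a secreted glycoprotein, had 127, 136 and 213 CPM in Nor_Bl_mono, 83.9, 133 and 0 CPM in NMO_Bl_mono and 85.8, 27.9 and 119 CPM in NMO_Br_mono, each brain value lying below each normal one. Sp100, a nuclear body protein, had 22.9, 92.7 and 26.1 CPM in Nor_Bl_mono, 63.6, 51.7 and 0.36 CPM in NMO_Bl_mono and 13.3, 0.19 and 18.6 CPM in NMO_Br_mono. Sp100 was also lower in the brain than in normal blood throughout, with a log2 fold change of -2.14 ± 1.91 (edgeR adjusted p = 1). Ifi44, the gene that could not be tested, had 13.3 CPM in Nor_Bl_mono replicate 2 and 8.60 CPM in NMO_Br_mono replicate 1, and was at or under 0.84 CPM elsewhere.

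The next question was whether blood monocytes of NMO mice differed from those of normal mice. By edgeR 0 of 45 genes had an adjusted p under 0.05, as did 0% of all genes, and 0 met the study's threshold, against 0.712% of all genes. DESeq2 called 0 by either rule, against 0.616% and 2.94% of all genes. The median log2 fold change was -0.40, with 13 of 45 positive, where the median of all genes was -0.16 and 42.4% were positive. All NMO_Bl_mono libraries were above all Nor_Bl_mono libraries for 0 of 45 genes, against 2.34% of all genes, and below for 4 (Ifit3, Oasl2, Dhx58 and Trim25), against 4.45%. The negative median depended on NMO_Bl_mono replicate 3. Without that library the median was 0.12 (0.07 over all genes), and 9 of 46 genes lay above, as did 11.6% of all genes. Some genes stayed below, as 5 of 46 did without both sparse libraries, against 5.38% of all genes.

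Against blood of normal mice, NMO_Br_mono gave 0 of 45 genes with an adjusted p under 0.05 (edgeR), against 0.247% of all genes, and 2 at the study's threshold (Ifitm1 higher and Trim25 lower), against 5.82% of all genes. DESeq2 called 1 gene after adjustment, Ifitm1, where it called 4.12% of all genes. The share of members called, 4.44%, was near that of all genes. Non-overlapping libraries were found for 7 genes above (Isg15, Oasl2, Eif2ak2, Mx2, Parp14, Ifitm1 and Ifitm2), against 6.07% of all genes, and for 5 below (Trim25, Parp9, Gbp3, Sp100 and Lgals3bp), against 9.37%. The median log2 fold change was 0.47, with 29 of 45 positive, and -0.12 over all genes. The 3 comparisons share groups, so their values are given side by side and were not correlated.

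Leaving out both sparse libraries, a choice made after seeing the data, let all 46 genes be tested and changed the counts. For NMO_Br_mono against NMO_Bl_mono 7 genes were then higher at the study's threshold (Mx1, Stat2, Rsad2, Ifit3, Oasl2, Slfn5 and Slfn1), or 15.2% of 46 against 2.04% of all genes tested, and 0 were lower, against 4.71%. The log2 fold changes of these 7 ran from 1.41 ± 0.59 (Slfn5) to 3.24 ± 1.26 (Ifit3), and their smallest edgeR adjusted p was 0.36 (Mx1). Of the 46, 31 were positive (67.4%, against 45.5% of all genes), and the median was 0.71 against -0.12. With 2 libraries in each NMO group, 18 of the 46 genes lay above and 6 below without overlap, against 16.1% and 25.4% of all genes. For NMO blood against normal blood, 1 gene was higher, Ifitm1 (log2 fold change 3.42 ± 1.06, edgeR adjusted p = 1), as were 1.04% of all genes. For NMO brain against normal blood Ifitm1, Stat2 and Slfn1 were higher and Trim25 lower, or 6.52% and 2.17% of 46, against 3.98% and 5.63% of all genes, and Ifitm1 passed after adjustment at 5.94 ± 1.16 (adjusted p = 0.0486).

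**Figure D5:**
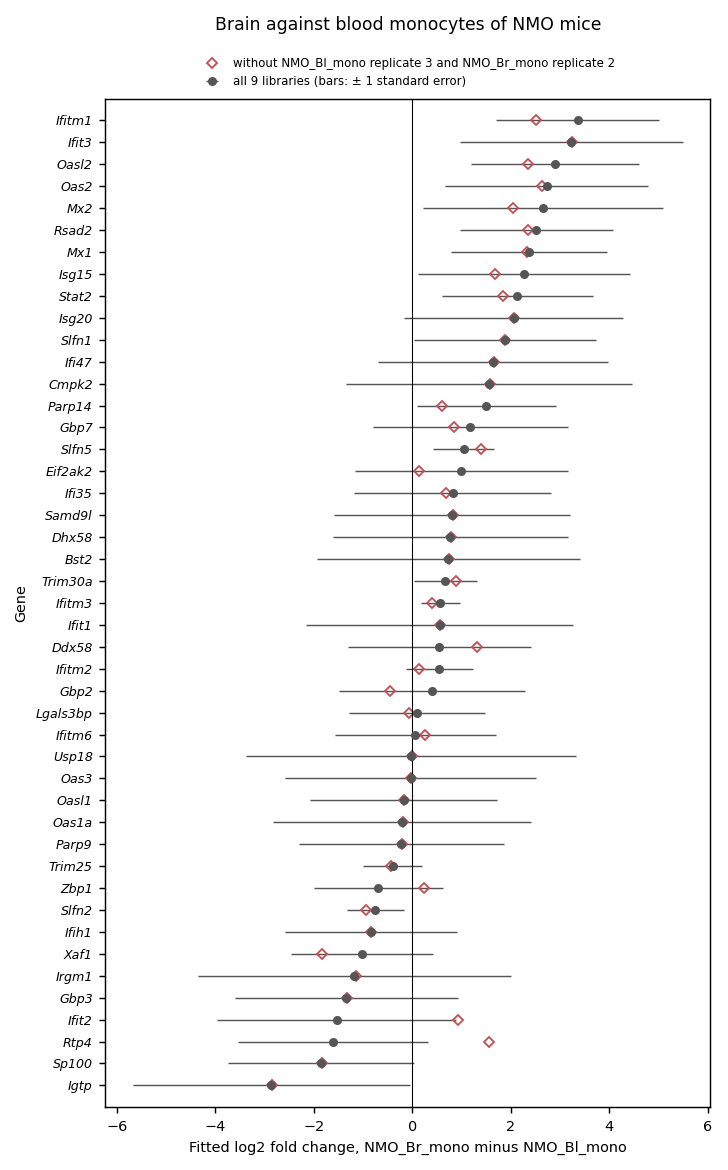
Fitted log2 fold change of NMO_Br_mono against NMO_Bl_mono (horizontal axis) for the 45 genes tested in all 9 libraries (grey points with 1 standard error) and for the same genes without both sparse libraries (open red diamonds). Ifitm1 is at the top with 3.36 and Igtp at the bottom with -2.86, and Ifit2, Rtp4, Zbp1, Gbp2 and Lgals3bp lie on opposite sides of 0 in the fits.

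The genes upstream of the response were then read from lists of pathway genes. Of 13 interferons and receptors, 6 had enough counts to be tested and 0 passed after adjustment in any of the 3 comparisons (edgeR), while 2 (Ifng and Ifngr1) were lower in the brain at the study's threshold against both blood groups. Of all genes, 5.32% met this threshold in either direction against NMO_Bl_mono and 5.82% against Nor_Bl_mono. Of the type I interferons Ifnb1 was at 0 in 8 libraries and at 3.08 CPM in NMO_Bl_mono replicate 1, and Ifna1, Ifna2 and Ifna4 were at 0 in all 9. The type III genes Ifnl2, Ifnl3 and Ifnlr1 did not exceed 0.14 CPM. Ifng had 148, 54.6 and 17.8 CPM in Nor_Bl_mono, 102, 46.03 and 0 CPM in NMO_Bl_mono and 0, 0.10 and 0 CPM in NMO_Br_mono (edgeR adjusted p = 0.33 against NMO_Bl_mono). The sum of the 8 NK cell markers, genes of a main source of Ifng, was also lower in all brain libraries. Not every single marker was, as Prf1 had 50.8 CPM in NMO_Br_mono replicate 2, within its blood range of 0 to 69.9 CPM. The part of NK cells in the Ifng counts was not tested. Ifngr1, the ligand-binding chain of its receptor, had 648, 843 and 718 CPM in Nor_Bl_mono, 683, 717 and 955 CPM in NMO_Bl_mono and 332, 328 and 229 CPM in NMO_Br_mono. Every brain library of Ifngr1 lay below every blood library, with a log2 fold change of -1.41 ± 0.34 against NMO_Bl_mono (edgeR adjusted p = 0.21) and -1.31 ± 0.34 against Nor_Bl_mono (adjusted p = 0.26). Ifngr2, Ifnar1 and Ifnar2 overlapped between groups, with log2 fold changes of 0.23 ± 1.06, 0.83 ± 0.83 and 0.66 ± 0.55 for brain against NMO blood. Il10rb, a receptor chain shared by type III interferon and interleukins and named here after its values were seen, had 20.1, 38.5 and 54.7 CPM in Nor_Bl_mono, 13.7, 14.5 and 0 CPM in NMO_Bl_mono and 140, 27.01 and 50.4 CPM in NMO_Br_mono. The brain was above NMO blood in all libraries and overlapped normal blood, with a log2 fold change of 2.94 ± 1.77 against NMO_Bl_mono (edgeR adjusted p = 0.92).

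Of 14 genes of the JAK-STAT-IRF chain and its feedback, all tested, 0 passed after adjustment in any comparison and 1, the kinase Jak1, was lower in the brain at the study's threshold against both blood groups. This 1 of 14 stands beside 5.32% and 5.82% of all genes called against NMO_Bl_mono and Nor_Bl_mono. Jak1 had 1185, 761 and 768 CPM in Nor_Bl_mono, 1170, 1159 and 776 CPM in NMO_Bl_mono and 523, 352 and 406 CPM in NMO_Br_mono, a log2 fold change of -1.28 ± 0.34 against NMO_Bl_mono (edgeR adjusted p = 0.32). Brain and blood did not overlap for Jak1. Irf7 and Irf9, transcription factors of the feed-forward response and of the ISRE-binding complex, had log2 fold changes of -0.45 ± 1.30 and 0.73 ± 1.33 for brain against NMO blood. Irf7 was at 0.10 CPM in NMO_Br_mono replicate 2, against 104 and 56.6 CPM in the other brain libraries.

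Among 12 genes that induce interferon, 10 were tested, and 2 met the study's threshold in NMO_Br_mono against Nor_Bl_mono, Tmem173 (STING) higher and the adaptor Mavs lower. In this comparison 5.82% of all genes met it. Tmem173 had 23.7, 2.01 and 0.72 CPM in Nor_Bl_mono, 43.0, 60.9 and 52.1 CPM in NMO_Bl_mono and 66.0, 119 and 58.0 CPM in NMO_Br_mono (log2 fold change 3.20 ± 1.45, edgeR adjusted p = 0.71). Both NMO groups were above normal blood for this gene. Mavs was at 0 in all brain libraries, and also in Nor_Bl_mono replicate 1 and NMO_Bl_mono replicate 3, and was at most 22.5 CPM elsewhere.

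A wider list of 62 other interferon-stimulated genes in the files, 52 of them tested, also gave 0 adjusted calls in each comparison. At the study's threshold 2 were higher (Ifi30 and Ly6a) and 2 lower (Gbp4 and Gbp8) in NMO_Br_mono than in NMO_Bl_mono, 0 met it in NMO blood against normal blood, and against Nor_Bl_mono 1 was higher (Ifi30) and 3 lower (Gbp4, Gbp8 and Cxcl9). These are 4 of 52 in each comparison with the brain, beside 5.32% and 5.82% of all genes. Ifi30, a lysosomal thiol reductase of antigen processing, had 258, 521 and 356 CPM in Nor_Bl_mono, 440, 688 and 486 CPM in NMO_Bl_mono and 913, 1224 and 1365 CPM in NMO_Br_mono, above all blood libraries. The guanylate-binding protein Gbp8 had 20.1, 36.0 and 32.2 CPM in Nor_Bl_mono, 38.7, 27.2 and 132 CPM in NMO_Bl_mono and 0, 0 and 0.20 CPM in NMO_Br_mono. Gbp8, Gbp4 and Cxcl9 (an attractant of T cells) were thus not detected above 3 counts in any brain library, including the 2 that were not sparse. Cxcl9 was also at 0 in NMO_Bl_mono replicates 2 and 3 and did not exceed 10.5 CPM in blood.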

How the data were processed

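The authors aligned single-end QuantSeq 3ʹ reads with Bowtie2 and counted unique and multiple alignments with bedtools. They deposited raw counts per gene symbol for each library, before their own TMM and CPM scaling. The processing notes of the submitters name mm10, and tool versions, annotation and the use of strand in counting are not given in the sources used here. Groups were taken from the sample labels. Replicates were separate pools of mice per the study's methods.

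Each file held 23282 entries. Where a symbol was repeated (35 symbols), its entry of highest count was used. All 9 libraries were fitted together in edgeR 4.0.16 (R 4.3.3, limma 3.58.1) with TMM factors, filterByExpr, glmQLFit and glmQLFTest, and p-values were adjusted by Benjamini-Hochberg over the 10107 genes tested. The common dispersion was 2.87. Rn45s stayed in the library sizes. A count of 3 was the detection floor, and it covers counting error only. Alternatives were RLE factors, total counts alone, no Rn45s, no expression filter, only the libraries compared, a replicate block, summed repeated symbols, DESeq2 1.42.0, and each library left out in turn, and, chosen after seeing the data, both sparse libraries left out. Promoter motifs were matched exactly in RefSeq windows.

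Values in every library are given for members called by either rule, the 8 members of highest mean CPM, up to 4 members per comparison with the largest change and no overlap, and the membrane restriction factors. Stat2 and Igtp are also given in every library, outside this rule. Other members are named by role. Pathway genes are named when called, with Ifnb1, Ifng, the chains of their receptors, Irf7 and Irf9 in any case, apart from 1 gene that is not reported here. Other pathway genes named are marked or are given for their lack of counts. The members, the roles, the lists and the tests were chosen with earlier results of these data known.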

Additional observations from a re-analysis of the deposited data

How the results depend on the processing

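Counts of interferon-stimulated genes with an adjusted p under 0.05 stayed at 0 in NMO_Br_mono against NMO_Bl_mono and in NMO_Bl_mono against Nor_Bl_mono under every alternative. In NMO_Br_mono against Nor_Bl_mono the count was 1, Ifitm1, without the expression filter (0.796% of all genes) and with DESeq2 (4.12%). It was also 1 with both sparse libraries left out (0.958%). When each library was left out in turn it was 0 to 1, with 1 without NMO_Bl_mono replicate 3 (0.552%). Members at the study's unadjusted threshold numbered 0 in NMO_Br_mono against NMO_Bl_mono in the main fit. There was 1 with RLE factors (5.58% of all genes), total counts alone (6.22%), the replicate block (3.64%) or DESeq2 (8.97%). There were 3 such members without the filter (4.85%), 7 without both sparse libraries (6.75%), and 0 to 3 with single libraries left out (3.41% to 6.25%). In NMO_Bl_mono against Nor_Bl_mono they numbered 0, 2 without the filter (1.03% of all genes), 1 without both sparse libraries (1.31%) and 0 to 1 with single libraries left out (0.375% to 1.09%), and in NMO_Br_mono against Nor_Bl_mono 2, 1 without the filter (4.85%) or with DESeq2 (9.85%), 4 without both sparse libraries (9.61%) and 1 to 3 with single libraries left out (3.36% to 8.18%). Members above without overlap ran from 7 to 18 in NMO_Br_mono against NMO_Bl_mono, 0 to 9 in NMO_Bl_mono against Nor_Bl_mono and 7 to 19 in NMO_Br_mono against Nor_Bl_mono when single libraries were left out, with 18, 9 and 19 without both sparse ones, and members below from 0 to 6, 4 to 9 and 5 to 9, with 6 below in the first comparison without both. Over all genes the shares above ran from 5.83% to 13.7%, 2.20% to 11.6% and 5.65% to 13.05% with single libraries left out, and were 16.1%, 11.7% and 13.1% without both, and the shares below ran from 5.43% to 19.5%, 4.01% to 10.7% and 8.43% to 17.5%. The highest counts above came without NMO_Br_mono replicate 2 (18 and 19) and without NMO_Bl_mono replicate 3 (9). Fewer libraries make overlap less likely by construction. With total counts alone 1 member lay below in NMO_Br_mono against NMO_Bl_mono (6.10% of all genes) and 2 against Nor_Bl_mono (8.46%). The median log2 fold change ran from 0.30 to 1.04 in NMO_Br_mono against NMO_Bl_mono, from -0.78 to 0.12 in NMO_Bl_mono against Nor_Bl_mono and from 0.08 to 0.79 in NMO_Br_mono against Nor_Bl_mono with single libraries left out, and the value of NMO_Bl_mono against Nor_Bl_mono was 0.12 without both sparse libraries too. In NMO_Br_mono against NMO_Bl_mono, single members were followed through all alternatives only if the rule for values in every library chose them for that comparison. Dhx58, Ifit3, Sp100, Stat2 and Igtp were followed there only without both sparse libraries. Of the members followed through all alternatives, Ifitm6 and Lgals3bp turned sign. Ifitm6 was at -0.032 with total counts alone, -0.21 with the replicate block and -0.86 to 0.66 with single libraries left out. Lgals3bp was at -0.47 to 0.90 with single libraries left out and -0.067 without both sparse libraries. Of the other members, Ifit2 turned from -1.53 to 0.93, Rtp4 from -1.61 to 1.57, Zbp1 from -0.69 to 0.23 and Gbp2 from 0.40 to -0.46 without both sparse libraries. The cause was not tested. With the replicate block the median log2 fold changes were 1.17, -0.51 and 0.68. Libraries of 1 number correlated between groups at -0.01 to 0.12 over genes, and the numbers were not taken to pair the samples in the main fit. Each NMO_Bl_mono library correlated best with the Nor_Bl_mono library of its own number, and replicate 1 did so in every comparison. NMO_Br_mono replicate 2 did not in either comparison with blood. Replicate 1 also had the highest Rn45s share within each group (43.6%, 42.2% and 39.3%). The labels do not say what libraries of 1 number shared.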
